A study of Oryza sativa Indica Group with 12 samples.

Results

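A chromatin loop marked by H3K4me3 was counted as nested when its outer span was at most 200 kb and it lay wholly between the inner ends of at least 1 H3K9me2 loop of up to 1 Mb in the same rice variety. By this rule 859 of 9714 H3K4me3 loops were nested in MH63 and 1461 of 12279 in ZS97, 2320 of 21993 in all. The members were chosen by the positions of the 2 kinds of loop, so their position inside an H3K9me2 loop is a description of the choice and not a finding. The other H3K4me3 loops of up to 200 kb, 8655 in MH63 and 10673 in ZS97, served as the comparison, and the 200 and 145 loops longer than that were set aside.

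ChIA-PET is a proximity ligation method in which chromatin is first pulled down with an antibody, and each paired-end tag (PET) then reports 2 places that were near each other on chromatin with the chosen mark or protein. H3K4me3, the trimethylated lysine 4 of histone H3, marks the promoters of active genes. H3K9me2, the dimethylated lysine 9, marks silent heterochromatin, which in rice is rich in transposable elements and lies mainly around the centromeres. RNA polymerase II (RNAPII) is the enzyme that transcribes protein-coding genes, and loops pulled down with it join transcribed regions.

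Young leaves were taken from seedlings grown for 2 weeks under 14 h light at 32 °C and 10 h dark at 28 °C. Both parents of a rice hybrid were used, both of them indica rice: Minghui 63, written MH63, and Zhenshan 97, written ZS97. The plants had no mutation and no treatment. Chromatin of each variety was pulled down with antibodies to H3K4me3, H3K9me2 or RNAPII, with 2 libraries for each of the 6 combinations, 12 in all. Loops had been called on the 2 libraries of a combination together, so each of the 6 loop lists is 1 measurement without replicates, no p-value is given, and whether a difference exceeds the spread between replicates could not be assessed.

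The H3K4me3 lists held 55011 PETs in MH63 and 76602 in ZS97, the H3K9me2 lists 55405 and 95484, and the RNAPII lists 191725 and 197758. The lists began at 4 PETs per loop, except the ZS97 RNAPII list, which began at 6. Intervals below are 95% intervals (Wilson for a share, Newcombe for a difference of shares, order statistics for a median). They cover counting error only and treat loops as separate, although loops share anchors.

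Nested loops were a small share of the short H3K4me3 loops, and this share was higher in ZS97 than in MH63. They made up 9.03% of the loops of up to 200 kb in MH63 (interval 8.47 to 9.62) and 12.0% in ZS97 (11.5 to 12.6). The share was higher in ZS97 on 12 of 12 chromosomes, but the intervals of the varieties overlapped on 8 of them and were apart on 4 (chromosomes 2, 7, 8 and 12). In MH63 it ran from 5.53% on chromosome 3 to 16.0% on chromosome 12, and in ZS97 from 7.80% on chromosome 3 to 28.1% on chromosome 12. Chromosomes 7, 8 and 12 showed the widest gaps, with 7.95%, 14.7% and 16.0% in MH63 against 17.1%, 23.3% and 28.1% in ZS97. Chromosome 11, at 14.8% and 15.03%, was among those whose intervals overlapped. The ZS97 lists also held more H3K9me2 loops of up to 1 Mb (6016 against 4798) and more PETs within loops. PETs within loops are not sequencing depth. By the paper's counts for joined replicates, ZS97 had fewer uniquely mapped H3K4me3 PETs than MH63 and more H3K9me2 PETs. Variety and depth cannot be told apart here.

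**Figure D1:**
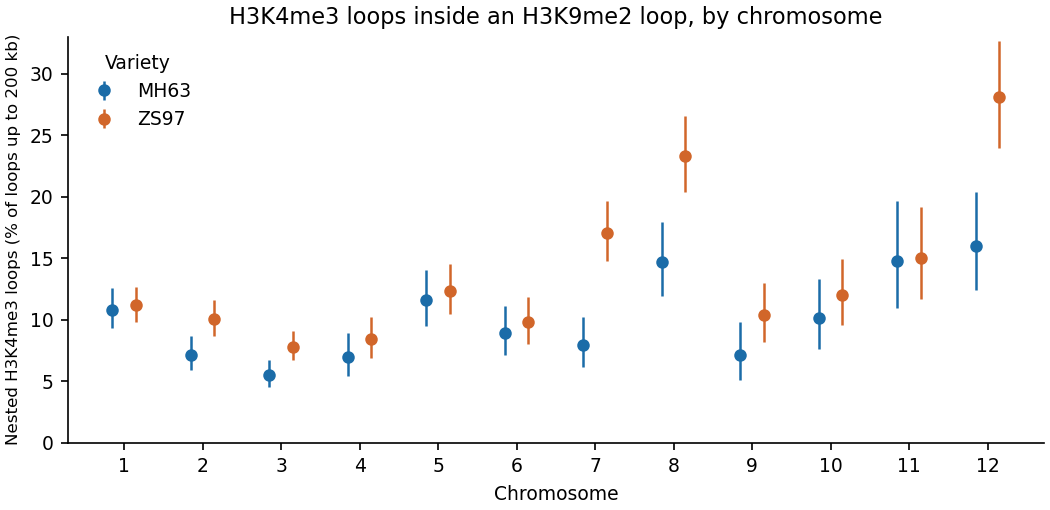
Share of H3K4me3 loops of up to 200 kb that lay inside an H3K9me2 loop (y axis, percent) on each of the 12 chromosomes (x axis) in MH63 and ZS97; points are shares of the joined list and bars are 95% Wilson intervals. The ZS97 point is the higher on every chromosome, and the highest is chromosome 12 of ZS97 at 28.1%.

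The surroundings of the nested loops were rich in H3K9me2 loops, which the rule requires, and poorer in H3K4me3 loops than those of the other loops. The sequence between H3K9me2 inner ends covered 116 Mb in MH63 (32.2% of the sequence up to the last loop of each chromosome) and 119 Mb in ZS97 (34.4%). Nested loops lay in it at 7.42 per Mb in MH63 and 12.3 per Mb in ZS97, while the other loops, counted over the remaining sequence, came to 35.5 and 47.0 per Mb. In 1 Mb bins with 11 or more H3K9me2 loops, 451 of 719 H3K4me3 loops were nested in MH63 (62.7%) and 914 of 1356 in ZS97 (67.4%). In bins with 1 to 10 H3K9me2 loops these shares were 7.20% and 7.74%. Since a member must have an H3K9me2 loop around it, these shares describe the choice of members and are no finding. The bin of a nested loop held a median of 16 H3K4me3 loops in MH63 and 22 in ZS97, against 50 and 63 for the other loops. Members were found in 180 of 350 bins in MH63 and 179 of 348 in ZS97, and the 10 fullest bins held 24.9% and 19.7% of them.

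The positions of the remaining H3K4me3 loops follow from the same lists and are given as a description. Apart from the members, 8270 loops in MH63 (86.9% of loops of up to 200 kb) and 10131 in ZS97 (83.5%) had no overlap with an H3K9me2 loop of up to 1 Mb. A further 218 and 312 loops had 1 anchor inside such an H3K9me2 loop and 1 anchor beyond it. A loop that is short beside an H3K9me2 loop will mostly lie within it rather than cross its end, and no value for that was computed. A whole H3K9me2 loop was held by 102 and 159 of the other loops. For comparison, RNAPII loops of up to 200 kb with separate anchors lay inside an H3K9me2 loop in 915 of 11238 cases in MH63 (8.14%) and 882 of 9274 in ZS97 (9.51%).

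Among H3K9me2 loops of up to 1 Mb, most members had a single one around them. This held for 514 loops in MH63 (59.8%) and 767 in ZS97 (52.5%), while 99 and 200 loops lay inside 6 or more. The innermost H3K9me2 loop had a median inner span of 207 kb in MH63 and 224 kb in ZS97, of which the nested loop took a median of 11.3% and 11.9%. The gap to the nearer H3K9me2 anchor had a median of 30.5 kb in MH63 and 33.9 kb in ZS97, and it was under 10 kb for 228 (26.5%) and 341 (23.3%) of them. The PET count of the nested loop was higher than that of its innermost H3K9me2 loop in 307 cases, equal in 240 and lower in 312 in MH63. In ZS97 it was higher in 523, equal in 261 and lower in 677.

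Seen from the H3K9me2 side, most loops enclosed no H3K4me3 loop. An H3K4me3 loop was held by 880 of 4798 H3K9me2 loops in MH63 (18.3%) and 1499 of 6016 in ZS97 (24.9%). Enclosing loops were long, with a median distance between anchor midpoints of 233 kb in MH63 and 248 kb in ZS97, against 59.5 and 62.6 kb for the rest. Of the H3K9me2 loops shorter than 50 kb, 2.54% and 2.57% held an H3K4me3 loop, and of those from 200 kb to 1 Mb, 42.7% and 54.3% did. Length is tied to the rule, since a longer loop can hold more. Of the enclosing loops, 443 in MH63 (50.3%) and 700 in ZS97 (46.7%) held 1 nested loop, and 119 and 251 held 5 or more.

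The H3K9me2 loop that held the most members in MH63 joined chr4:26968420-26996045 with chr4:27485122-27494240 by 4 PETs and had 29 nested H3K4me3 loops in its 489 kb inner span. They had 4 to 15 PETs (median 6), and an RNAPII loop lay over the anchor pair of 3 of them. In ZS97 the loop from chr7:16333501-16348097 to chr7:17216784-17228889, also with 4 PETs, held 39 nested loops in 869 kb, with 4 to 12 PETs (median 5) and an RNAPII loop over 1 pair. Both of these H3K9me2 loops stood at the lowest PET count of their list. Within their outer ends lay 1 other H3K9me2 loop in MH63 and 10 in ZS97. The one in MH63 and some of those in ZS97 started from the left anchor of the enclosing loop. Coordinates are given as in the deposited lists, on the MH63 or ZS97 genome, and positions were not compared between the varieties.

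**Figure D2:**
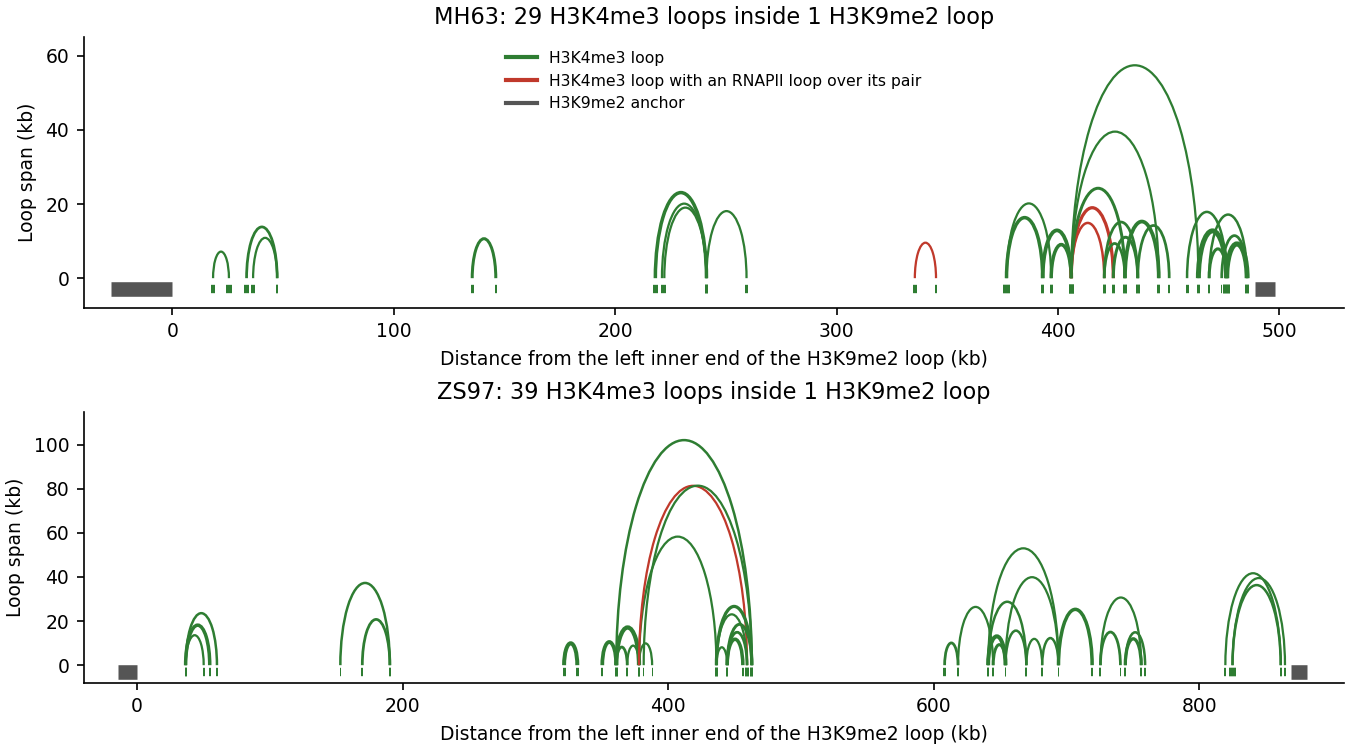
H3K4me3 loops inside the H3K9me2 loop with the most members in MH63 (top, 29 loops) and ZS97 (bottom, 39 loops); the x axis is the distance from the left inner end of the H3K9me2 loop in kb, arc height is the span between anchor midpoints in kb, line width grows with the PET count, and grey blocks are the H3K9me2 anchors. The loops form separate clusters with empty stretches between them, and red arcs, those with an RNAPII loop over the same pair, number 3 and 1.

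Nested loops were short, and their length was close to that of the other loops. The median distance between anchor midpoints was 15.1 kb in MH63 (interval 14.5 to 16.0, range 6.74 to 189 kb) and 17.4 kb in ZS97 (16.8 to 18.4, range 6.52 to 192 kb). The other loops had medians of 16.1 and 17.3 kb. Loops that overlapped an H3K9me2 loop without being nested were longer, at 29.8 and 40.2 kb. Anchors of nested loops were slightly narrower, with medians of 1.42 against 1.58 kb in MH63 and 1.66 against 1.78 kb in ZS97. A loop must fit inside its H3K9me2 loop to be a member, so the rule itself acts on length.

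Over all lengths, anchors of RNAPII loops were found less often at nested loops than at the other loops in both varieties. An RNAPII anchor here is an anchor of a called RNAPII loop. RNAPII sites outside such loops were not counted, so these shares do not measure RNAPII occupancy. Both anchors overlapped RNAPII anchors in 102 of 859 nested loops in MH63 (11.9%, interval 9.88 to 14.2) against 1448 of 8655 other loops (16.7%), with 16.3% over all loops of up to 200 kb. The difference was -4.86 percentage points (-7.01 to -2.40). In ZS97 the counts were 202 of 1461 (13.8%, 12.1 to 15.7) against 2116 of 10673 (19.8%), with 19.1% over all loops, a difference of -6.00 points (-7.84 to -3.99). By length the MH63 difference was -7.85 points at 15 to 50 kb (-10.8 to -4.14), while its interval held 0 below 15 kb (-5.41 to 1.28) and above 50 kb (-12.2 to 6.20). In ZS97 it was -5.01 (-7.71 to -1.89), -6.74 (-9.36 to -3.77) and -7.67 points (-13.4 to -0.645) in these classes from short to long. Among H3K4me3 loops of at least 6 PETs the MH63 interval also held 0 (-8.58 to 0.42). At least 1 anchor lay on an RNAPII anchor in 44.0% of nested and 57.5% of other loops in MH63, and in 45.3% and 58.0% in ZS97. The lists of H3K4me3 and RNAPII loops came from separate libraries, and the rule used no RNAPII value.

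A stricter measure, an RNAPII loop joining the same pair of anchors, gave the same direction. An RNAPII loop with wide anchors can count here for several H3K4me3 pairs. Such a loop was present for 91 nested loops in MH63 (10.6%) against 14.0% of the others and 13.7% of all, a difference of -3.46 points (-5.48 to -1.11). In ZS97 it was present for 147 (10.1%) against 15.3% of the others and 14.6% of all, a difference of -5.19 points (-6.79 to -3.41). For this measure the gap in MH63 was -6.27 points at 15 to 50 kb (-9.03 to -2.72), but below 15 kb and above 50 kb its interval held 0 (-4.30 to 2.15 and -6.95 to 9.62). In ZS97 the gap was -4.50 points below 15 kb (-6.96 to -1.59), -6.45 at 15 to 50 kb (-8.63 to -3.90) and -1.82 above 50 kb, where the interval also held 0 (-6.55 to 4.40).

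The lower share on RNAPII anchors was not uniform over the chromosomes. The share with both anchors on RNAPII anchors was lower in nested loops on 7 of 12 chromosomes in MH63 and 10 of 12 in ZS97. Chromosome 11 went the other way in both, at 21.1% of 38 nested loops against 12.3% in MH63 and 30.8% of 52 nested loops against 8.16% in ZS97. Chromosome 7 of MH63 stood at 3.57% against 16.2%, and chromosome 4 of ZS97 at 6.52% against 19.7%. Against other loops of the same 1 Mb bins, which numbered 2303 and 3040, the difference for both anchors was -4.67 points in MH63 (-7.21 to -1.91) and -8.97 in ZS97 (-11.2 to -6.60), so it was wider in ZS97 and nearly as wide in MH63. Loops were pooled over these bins and not matched bin by bin. The bin of a nested loop held a median of 16 H3K4me3 loops in MH63 and 22 in ZS97, against 43 and 57 for these other loops. The part of local loop density in the RNAPII difference was not tested.

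**Figure D3:**
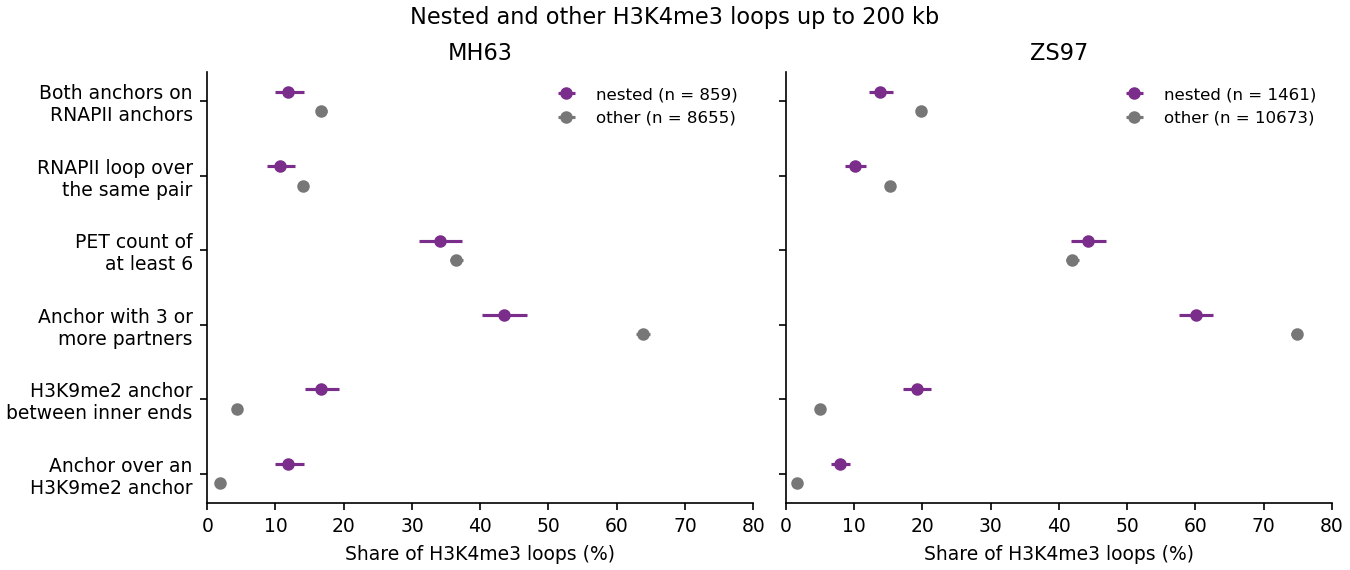
Shares (x axis, percent) of nested and other H3K4me3 loops of up to 200 kb with each of 6 features (y axis) in MH63 and ZS97; points are shares of the joined lists and bars are 95% Wilson intervals. Nested loops lie to the left for both RNAPII measures and for partners, and to the right for both H3K9me2 measures, in both varieties. The PET count goes to the left in MH63 and to the right in ZS97, within counting error in each.

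**Figure D4:**
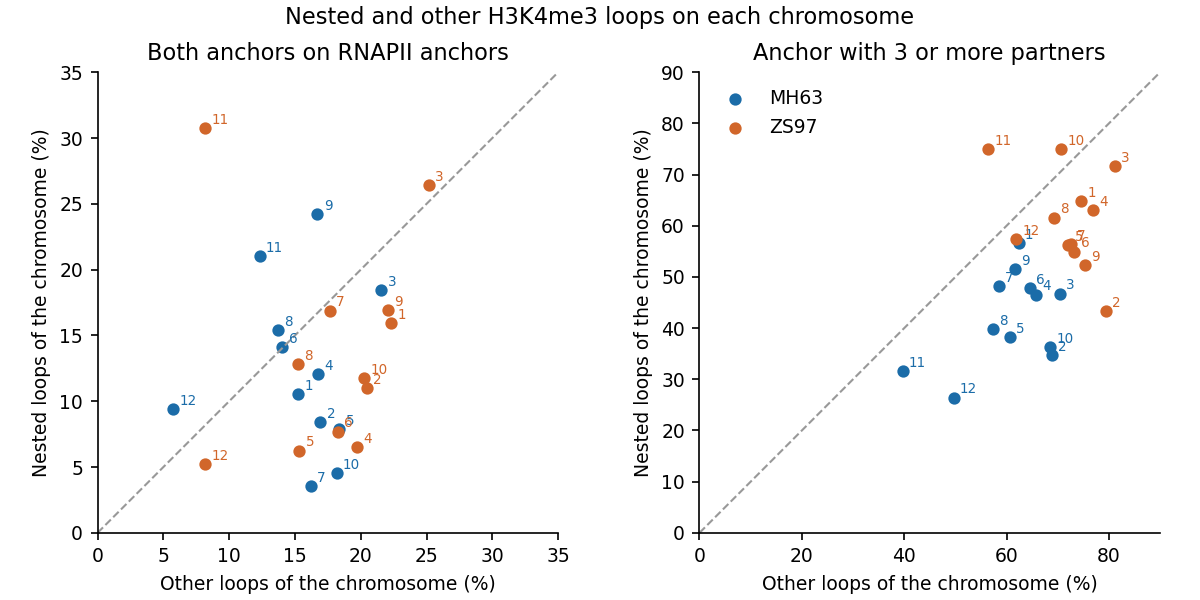
Share of nested loops (y axis, percent) against share of other loops (x axis, percent) on each chromosome, numbered, for both anchors on RNAPII anchors (left) and for an anchor with 3 or more partners (right); the dashed line marks equal shares. On the left 7 MH63 and 10 ZS97 chromosomes lie below the line, and on the right 12 and 10 do.

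Nested loops had fewer partners than the other loops. An anchor is counted here with all anchors it was joined to in the H3K4me3 list, and an anchor with 3 or more partners was present in 374 nested loops in MH63 (43.5%, 40.3 to 46.9) against 63.8% of the others and 62.0% of all. The difference was -20.3 points (-23.7 to -16.8), and the share was lower in nested loops on 12 of 12 chromosomes. In ZS97 it was present in 878 (60.1%, 57.6 to 62.6) against 74.9% of the others and 73.1% of all, a difference of -14.8 points (-17.4 to -12.2) that held on 10 of 12 chromosomes. The exceptions were chromosome 10 (75% against 70.7%) and chromosome 11 (75% against 56.5%). The gap was present in each length class, from -18.6 to -23.2 points in MH63 and from -13.8 to -16.8 in ZS97. The number of H3K4me3 loops in the bin moved with it, and against other loops of the same bins, whose bins held medians of 43 and 57 loops, it was -16.5 points in MH63 (-20.3 to -12.6) and -14.4 in ZS97 (-17.4 to -11.5). The part of local loop density in this difference was not tested further.

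Nested loops inside 6 or more H3K9me2 loops had fewer partners than those inside 1. In MH63 49.4% of those inside 1 H3K9me2 loop had an anchor with 3 or more partners (45.1 to 53.7). The share was 39.4% inside 2 to 5 (33.5 to 45.7) and 23.2% inside 6 or more (16.0 to 32.5). In ZS97 these shares were 71.2%, 50.6% (46.2 to 55.0) and 41.0% (34.4 to 47.9). The intervals of the first 2 classes overlapped in MH63, and those of the last 2 in ZS97. Length and bin were not matched between these classes. Inside 1 H3K9me2 loop the ZS97 interval was 67.9 to 74.3, just below the 74.9% of the other loops. Both anchors lay on RNAPII anchors in 12.3%, 11.4% and 11.1% in MH63, which differed by less than their intervals. In ZS97 these shares were 16.8%, 11.5% and 8%.

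**Figure D5:**
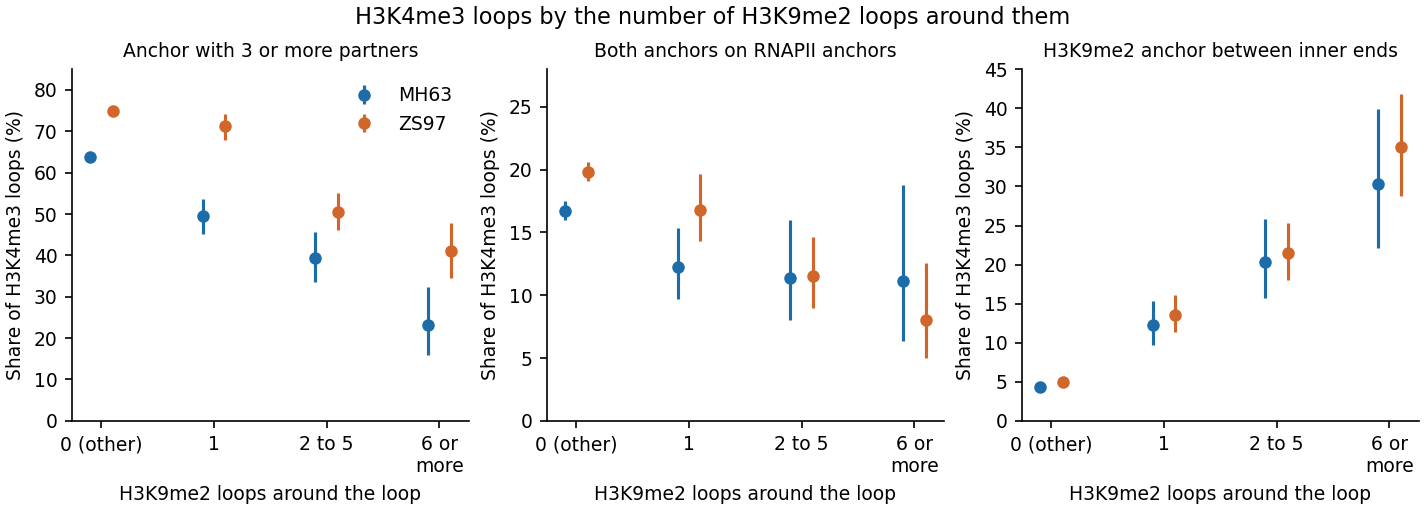
Shares (y axis, percent) of H3K4me3 loops with an anchor of 3 or more partners (left), with both anchors on RNAPII anchors (middle) and with an H3K9me2 anchor between their inner ends (right), by the number of H3K9me2 loops around them (x axis, 0 being the other loops); bars are 95% Wilson intervals. The share with partners falls to 23.2% in MH63 and 41.0% in ZS97 inside 6 or more H3K9me2 loops, and the share with an H3K9me2 anchor rises to 30.3% and 35%.

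The nested loops used 1220 anchors in MH63 and 1740 in ZS97, of which 90.4% and 90.6% carried no other kind of H3K4me3 loop, which follows in large part from the rule, since an anchor inside an H3K9me2 loop carries another kind only where that loop crosses an end or exceeds 200 kb. Of these anchors 67.0% had a single partner in MH63 and 55.1% in ZS97, against 53.2% and 45.4% of the anchors of other loops only. Joined by shared anchors, the members formed 429 groups in MH63 and 478 in ZS97, and 266 (62.0%) and 229 (47.9%) of the groups were 1 loop. The largest group in MH63 had 20 loops over 111 kb (chr4:27371408-27482444), and in ZS97 35 loops over 291 kb (chr1:25844190-26134974). The MH63 group lay inside the H3K9me2 loop with the most members described above.

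The anchor of a nested loop with the most partners in MH63 was chr4:27470510-27473947, with 9 partners, and 4 of its 9 loops were nested, with 15, 15, 7 and 5 PETs. In ZS97 it was chr7:21294188-21300575, with 20 partners and 7 of 20 loops nested, at 5 to 36 PETs. Both anchors lay on an RNAPII anchor and on no H3K9me2 anchor.

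The strength of nested loops, as their PET count, was close to that of the others. The median was 5 PETs in nested and other loops of both varieties, and the means were 5.60 and 5.70 in MH63 and 6.47 and 6.23 in ZS97. A count of 6 or more was reached by 293 nested loops in MH63 (34.1%) against 36.5% of the others and 36.3% of all, a difference of -2.40 points (-5.66 to 0.987). In ZS97 it was reached by 647 (44.3%) against 41.9% of the others and 42.2% of all, a difference of 2.35 points (-0.35 to 5.07). Both of these intervals held 0. By length the ZS97 difference was 1.12 points below 15 kb (-3.16 to 5.37), 3.82 at 15 to 50 kb (0.0131 to 7.70) and 6.87 above 50 kb (0.177 to 14.5), and against other loops of any length it was 2.85 (0.159 to 5.57). In MH63 each length class had an interval that held 0.

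Nested loops with an RNAPII loop over the same pair had more H3K4me3 PETs than those without. In MH63 the mean was 7.05 PETs in 91 loops with and 5.42 in 768 without, and 50.5% (40.5 to 60.6) against 32.2% (29.0 to 35.5) had 6 or more. In ZS97 the means were 9.39 and 6.15, and the shares 68.7% (60.8 to 75.6) against 41.6% (38.9 to 44.2). The other loops showed the same order, at 49.6% against 34.4% in MH63 and 54.2% against 39.7% in ZS97. The RNAPII loop over a nested pair had a median of 19 PETs in MH63 and 14 in ZS97, against 19 and 18 over the pairs of other loops. The RNAPII lists began at 4 PETs in MH63 and 6 in ZS97, so the varieties are not compared here.

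The 5 nested loops with the highest PET counts in MH63 had 30, 30, 29, 24 and 22 PETs. The first joined chr12:9328479-9330543 with chr12:9357820-9359662 inside 5 H3K9me2 loops, with an RNAPII loop of 17 PETs over the pair. The second, chr2:15965546-15968277 with chr2:15984762-15986397, lay inside 2 H3K9me2 loops, had an H3K9me2 anchor between its ends and had no RNAPII loop. The third, on chromosome 1 (chr1:11914298-11917202 with chr1:11925229-11927411), also had none, and the fourth on chromosome 1 had one of 21 PETs. The last, on chromosome 7, had none. So 2 of these 5 carried an RNAPII loop.

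In ZS97 the 5 highest had 65, 46, 44, 41 and 40 PETs. The first joined chr7:23949331-23952024 with chr7:23959434-23962388 inside 1 H3K9me2 loop, and neither of its anchors lay on an RNAPII anchor. The second, chr3:22804775-22806447 with chr3:22816269-22819589, had an RNAPII loop of 13 PETs over the pair. The third, on chromosome 1, had none, and the last pair, on chromosomes 12 and 8, had RNAPII loops of 7 and 23 PETs. Thus 3 of these 5 carried an RNAPII loop. The ZS97 loop of 65 PETs, the highest of both varieties, did not, while the highest in MH63 did. Over all nested loops the share with an RNAPII loop was 10.6% in MH63 and 10.1% in ZS97, and 5 loops are too few for a comparison.

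The nested loop inside the most H3K9me2 loops in MH63, chr2:15417587-15419713 with chr2:15429992-15432414, had 8 PETs and 29 H3K9me2 loops around it. Its counterpart by rank in ZS97, chr6:12991647-12993010 with chr6:13004206-13005458, had 6 PETs and 62 H3K9me2 loops around it. Each of these loops had anchors with 1 partner only and no RNAPII anchor at either end. The highest RNAPII count over a nested pair was 327 PETs in MH63 (chr5:24019103-24020450 with chr5:24042818-24044216) and 315 in ZS97 (chr7:21275894-21277348 with chr7:21290396-21291326), and the H3K4me3 loop had 4 PETs in each case. The RNAPII anchors were wider than the H3K4me3 anchors in both cases. In ZS97 the right RNAPII anchor (chr7:21289403-21301239) also covered the anchor with the most partners named above. An RNAPII loop can lie over several H3K4me3 pairs, so these PETs need not belong to the named pair alone. The longest members spanned 189 kb on chromosome 11 of MH63, with 4 PETs and 5 H3K9me2 anchors between the ends, and 192 kb on chromosome 3 of ZS97, with 5 PETs and none.

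H3K9me2 anchors also lay within and under the nested loops. The rule used the same H3K9me2 lists, so these values only describe the members. An H3K9me2 anchor lay between the inner ends of 143 nested loops in MH63 (16.6%) against 4.38% of the others and 5.49% of all, and of 280 in ZS97 (19.2%) against 4.99% and 6.7%. An anchor overlapped an H3K9me2 anchor in 102 nested loops in MH63 (11.9%) against 1.85% of the others and 2.75% of all, and in 116 in ZS97 (7.94%) against 1.62% and 2.38%. Without loops that had such an anchor, the RNAPII and partner differences stayed within their intervals given above. A further H3K4me3 anchor lay between the inner ends of 36.4% of nested against 58.0% of other loops in MH63, and of 44.2% against 63.0% in ZS97. Some nestings had a further layer, since 32 nested loops in MH63 (3.73%) and 73 in ZS97 (4.997%) held a whole H3K9me2 loop of their own. Among the other loops these shares were 1.18% in MH63 and 1.49% in ZS97.

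At the edge of the rule, the member closest to an inner end in MH63 lay 12 bp inside it (chr3:9666706-9667899 with chr3:9701976-9703236, 5 PETs) and the nearest loop left out ran 159 bp beyond one (chr8:4097349-4099079 with chr8:4106152-4107550, 4 PETs). In ZS97 these distances were 96 bp (8 PETs) and 10 bp (5 PETs). Of the other loops, 31 in MH63 and 38 in ZS97 lay inside the outer ends of an H3K9me2 loop but not its inner ends. Among H3K4me3 loops over 200 kb, 0 of 200 in MH63 and 7 of 145 in ZS97 lay inside an H3K9me2 loop, the shortest with an outer span of 239.8 kb.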

How the data were processed

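Long-read ChIA-PET libraries of young leaves were processed by the authors with an updated ChIA-PET Tool (version not given in the sources used here). Linkers were filtered, tags were mapped to the genome of the same variety, redundant PETs were removed, and loops were called on both replicates together, between extended ChIP-seq peaks, at an FDR below 0.05. Each deposited list gives 2 anchor positions (other values), the PET count, and the authors' p-value and FDR, on which no result here rests. The lists have no header, and whether positions count from 0 or 1 is not given in the sources used here.

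Overlap meant at least 1 bp. Partners were counted over the whole H3K4me3 list, and length classes were cut at 15 and 50 kb. Shares have Wilson and differences Newcombe intervals (Python 3.11.15, numpy 2.4.6, pandas 2.3.3, scipy 1.17.1). The counting of nested loops, RNAPII pairs, partners and anchors between inner ends was tested on simulated loops, and the intervals were not. No test between groups was run. Loops were named by fixed ranks: the 5 highest PET counts, the most enclosing loops, the longest, the H3K9me2 loop with most members, the anchor with most partners, the highest RNAPII count and the edges. Members and measures were chosen with earlier results of these data known. Depth per library was not analysed here.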

Additional observations from a re-analysis of the deposited data

Results flagged for a closer look

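The difference in the share of loops with 6 or more PETs had opposite signs in the 2 varieties, but neither sign went beyond counting error. Nested minus other was -2.40 percentage points in MH63 (-5.66 to 0.987) and 2.35 in ZS97 (-0.35 to 5.07), each from 1 joined list. The difference between the varieties was not tested.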

How the results depend on the processing

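No paired analysis was possible because the 2 replicates of each combination were joined in the deposited lists, and for the same reason no replicate could be left out. Of 104 recomputed values, 69 stayed close to the value reported (within 1.5 times for a count, within its interval for the rest), 35 moved and 0 changed sign. Only the differences could change sign, since counts, shares and spans cannot. The 69 include the ZS97 values for RNAPII loops of at least 6 PETs, which could not move because that list began at 6. The nested count fell to 480 in MH63 and 931 in ZS97 with H3K4me3 loops of at least 5 PETs, to 293 and 647 at 6 PETs, to 418 and 917 with H3K9me2 loops of at least 6 PETs, and to 345 and 694 when 2 enclosing loops were required, and it rose to 8388 and 10657 with H3K9me2 loops of any length. The shares were then 4.39% and 7.56% (H3K9me2 at 6 PETs), 6.99% and 8.95% (up to 500 kb), 3.63% and 5.72% (2 enclosing loops), and 88.2% and 87.8% (any length), so membership depends on the 1 Mb limit. Enclosing loops numbered 1695 and 2404 at any length, and 430 in MH63 with H3K4me3 loops of 6 PETs. Median span was 12.8 and 15.2 kb at 6 PETs, and 16.1 kb in MH63 at any H3K9me2 length. For both anchors on RNAPII, the MH63 difference was -2.33 points when at least 50% of the anchor had to be covered, and the ZS97 difference was -9.11 with 2 enclosing loops and -8.97 within the same bins. For the same pair, ZS97 gave -7.11 and -6.94. Some MH63 RNAPII intervals came to hold 0: both anchors at H3K4me3 6 PETs (-8.58 to 0.42), and the same pair at H3K4me3 6 PETs (-7.36 to 1.41), at H3K9me2 6 PETs (-5.83 to 0.299) and with 50% of the anchor covered (-3.66 to 0.00034). The MH63 PET difference was -6.38 (-11.1 to -1.25) with 2 enclosing loops, where its interval no longer held 0, and the ZS97 one was 2.85 (0.159 to 5.57) against other loops of any length, where it did not hold 0 either. Partner differences were -16.1 and -11.9 points at 6 PETs, and -16.5 in MH63 within bins. An H3K9me2 anchor lay under 23.2% and 25.4% with 2 enclosing loops. The comparison without loops on an H3K9me2 anchor was added after seeing the data. The joined lists limit precision, and the cause of these changes was not tested.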
